A study of Mus musculus with 4 samples.

Results

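The kinase gene Dyrk1a, the mouse copies of its neighbours in the 152F7 transgene segment (Ttc3, Pigp and Vps26c), its paralogues Dyrk1b, Dyrk2, Dyrk3 and Dyrk4, and Dcaf7, which encodes a binding partner of the kinase, were followed spot by spot between transgenic and wild-type embryos. Members were all spots of the deposited value table whose symbol in the platform annotation is one of these 9 genes. They comprised 13 of the 44290 spots and represented 8 of the 9 genes, since no spot carries the symbol Dyrk2. The 1 Dyrk4 spot had no value on any array, so 12 spots and 7 genes had values on all 4 arrays, of 17767 spots with 1 symbol and 11791 genes in the whole series.

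The study compared telencephalon, the forebrain part that becomes the cerebral hemispheres, from 152F7 and wild-type mice at E12.5 of embryonic development, both on the FVB strain. 152F7 mice carry a yeast artificial chromosome with human DNA around DYRK1A, so the added gene copies are human while the 60-mer probes were designed for mouse RNA. Whether a probe also binds the human transcript was not tested. Per the series text the RNA came from 1 series of pooled samples, and the 4 two-colour Agilent arrays are technical repeats, 2 with wild type labelled in Cy5 and 152F7 in Cy3, and 2 with the dyes exchanged. With 1 pool per genotype no test between genotypes exists, and no p-value is given.

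DYRK kinases phosphorylate serine and threonine residues and activate themselves by phosphorylating a tyrosine of their own activation loop while they are being translated. DYRK1A is known for its dosage sensitivity in brain: it restrains cell division of neural progenitors through cyclin D and the LIN52 subunit of the DREAM repressor complex, and acts on NFAT factors, splicing factors and tau. Extra copies are studied as a contributor to Down syndrome.

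The deposited values are log ratios of the 2 channels of an array and were read as log2. Neither their log base nor their direction is given in the sources used here. Values as deposited gave a Pearson correlation of 0.421 across 4352 genes between the first and second spot of a gene for the 4-array mean, and 0.0973 for the contrast between dye orientations (genes are not independent replicates, and Xist was left out). On that basis, seen in the data, the 4 arrays were read as running the same way, with 1 pool as numerator and the other as denominator, and neither labels nor values tell which genotype is on top. For the 20923 spots with 4 values, pairs of arrays of opposite orientation correlated at -0.596 to -0.661, and the 3144 of them without a symbol at -0.918 to -0.946. Over the 17767 with 1 symbol the Pearson values were 0.0367 to 0.116, whereas the Spearman values had the other sign (-0.0878 to -0.162). Member spots are therefore given with the orientations apart, and the members also with the sign of 1 orientation turned. Several listed genes outside the members are given by their 4-array mean alone. The dye contrast below is the average of the 152F7-in-Cy5 pair of arrays less that of the other pair, divided by 2, and it equals the log2 ratio of 152F7 over wild type if values are Cy5 over Cy3. The SD is that over the 4 technical arrays, dye orientation included, and leaves out the spread between embryos.

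Between 53.7% and 65.3% of spots had a value on an array. Intensities were not used here, so the level of a gene and its height above background are unknown. The 10 telencephalon markers reported here had values on all 4 arrays, with 4-array means from -0.11 to 0.28 (median 0.06). Of these 1, Lhx2 at 0.28 ± 0.12, reached 1.1-fold with 1 sign on all 4 arrays, where 3.42% of all genes were higher and 1.45% lower. With 1 orientation turned, 2 did so, Nkx2-1 and Tbr1, where all genes gave 4.49% and 2.39%. The pools also differed in lens, red cell, mesenchyme and sex-linked genes (4-array means of 0.50 to 1.21 for 4 crystallins, 0.20 to 0.29 for 3 red cell genes, 0.29 to 0.43 for 3 mesenchyme genes, -3.38 for Xist, and 2.10 and 0.80 for the Y-linked genes Eif2s3y and Kdm5d), and the part of this in the members' values was not tested. The sex-linked genes kept their sign in both orientations, with Xist at -3.53 to -3.27, Eif2s3y at 1.77 to 2.39 and Kdm5d at 0.705 to 0.895 over the 4 arrays.

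The 4-array mean of Dyrk1a was smaller in size than its SD, which includes the dye orientation, and its arrays separated by dye. Its 3 spots are set against different sequence records in the annotation. Spot 4200 read -0.150 and -0.086 with wild type in Cy5 and 0.275 and 0.176 with 152F7 in Cy5, a 4-array mean of 0.05 ± 0.20 (SD, n = 4 technical arrays). Spot 6362, for the RefSeq transcript of the gene, read -0.134 and 0.048 in the first orientation and 0.082 and 0.143 in the second, a mean of 0.03 ± 0.12. Spot 18171 read -0.137 and 0.009 against 0.040 and 0.064, a mean of -0.006 ± 0.090. On each of the 3 spots both arrays with 152F7 in Cy5 lay above both arrays with wild type in Cy5, although the 2 arrays with wild type in Cy5 differed from each other by 0.182 on spot 6362 and by 0.146 on spot 18171. Over all spots with 1 symbol and 4 values, 38.1% showed this separation. The dye contrast was 0.17, 0.08 and 0.06 on the 3 spots and 0.10 for the gene, so all spots ran the same way, with the largest contrast on the first. As a gene, Dyrk1a had a 4-array mean of 0.03 ± 0.13, which became -0.005 without replicate 2 of wild type in Cy5.

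Ttc3, which encodes a ubiquitin ligase with tetratricopeptide repeats, had the widest separation by dye. Its spot 17788 read -0.196 and -0.204 with wild type in Cy5 and 0.300 and 0.262 with 152F7 in Cy5. The 2 arrays of an orientation differed by 0.008 and 0.038, whereas the orientation means differed by 0.481. The 4-array mean was 0.04 ± 0.28. The dye contrast was 0.24, or 1.18-fold, which as read here is not a difference between the pools. This contrast was larger in size than or equal to that of 98.8% of the 11791 measured genes. By comparison, 51.4% of genes had a 4-array mean of the size of that of Ttc3 or smaller.

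Pigp, which encodes a subunit of the enzyme that starts synthesis of GPI membrane anchors, separated in the same direction. On spot 38319 the values were -0.227 and -0.199 with wild type in Cy5 and 0.032 and 0.131 with 152F7 in Cy5. The 4-array mean was -0.07 ± 0.18, the lowest of the 7 measured members, and the dye contrast was 0.15 (1.11-fold, at the 93.1st percentile of all genes by size).

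Ttc3 and Pigp lie next to each other on mouse chromosome 16 and are read in opposite directions from shared promoter DNA. It is shown here because, by gene average, these are the 2 members with the largest dye contrasts. By spot, Dyrk1a spot 4200 (0.17) lay above Pigp spot 38319 (0.15). Whether the shared DNA bears on these contrasts was not tested. In RefSeq's promoter table (build GRCm38.p6, 250 bases before to 50 after a start), all 9 members had at least 1 window, 15 in all. The Ttc3 window, chr16:94370489-94370788 on the plus strand, overlaps the Pigp window chr16:94370501-94370800 on the minus strand by 288 bases, with starts 189 bases apart. A second annotated Pigp start lies 29 bases from that of Ttc3. Capitals mark GCATGC, the core of the motif of the factor NRF1, and the E-box CACGTG, both of which read the same on either strand.
Ttc3 promoter: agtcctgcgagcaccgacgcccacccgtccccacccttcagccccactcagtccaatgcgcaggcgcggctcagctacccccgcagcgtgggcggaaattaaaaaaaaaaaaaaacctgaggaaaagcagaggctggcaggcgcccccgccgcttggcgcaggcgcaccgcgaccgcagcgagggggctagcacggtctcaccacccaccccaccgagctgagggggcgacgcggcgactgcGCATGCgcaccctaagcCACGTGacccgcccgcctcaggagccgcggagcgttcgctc
The NRF1 core was present in 7.93% and the E-box in 7.15% of the 32851 promoter windows of the table. In Pigp both occur in the windows chr16:94370501-94370800 and chr16:94370661-94370960, and are there the same bases as in Ttc3. Neither occurs in its windows chr16:94370281-94370580 and chr16:94370966-94371265. Among the other members both also occur in a window of Dyrk1b, and neither occurs in a window of Dyrk1a, Vps26c, Dyrk2, Dyrk3, Dyrk4 or Dcaf7. A match is a run of letters and not evidence of binding.

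Vps26c, a subunit of the retriever complex that recycles membrane proteins from endosomes, did not separate in any way. Spot 16826 read -0.074 and 0.035 with wild type in Cy5, and -0.058 and 0.076 with 152F7 in Cy5. The 2 orientations overlapped, the 4-array mean was -0.005 ± 0.072 and the dye contrast 0.01. Replicates of this spot differed by 0.109 and 0.134, a mean gap within the largest 25% of all spots with 1 symbol. Kcnj6, the potassium channel gene on the other side of Dyrk1a, had 2 spots with 1 value between them, 0.014 on replicate 1 with 152F7 in Cy5.

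**Figure D1:**
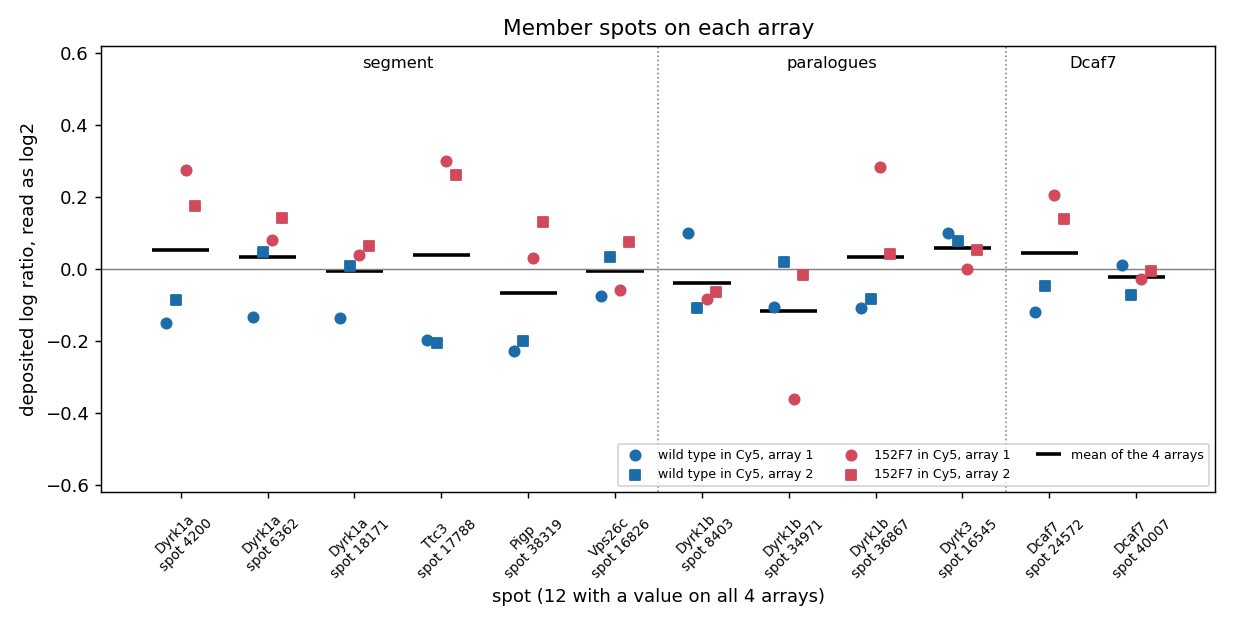
Deposited log ratios, read as log2, of the 12 member spots with 4 values, by array. Blue points are the 2 arrays with wild type in Cy5, red points the 2 with 152F7 in Cy5, circles and squares replicates 1 and 2, and black bars the 4-array means. The red points lie above the blue ones on 7 of the 12 spots, where 38.1% of all spots with 1 symbol and 4 values showed this separation. The 7 are all 3 Dyrk1a spots, Ttc3 and Pigp in the segment, and Dyrk1b spot 36867 and Dcaf7 spot 24572 outside it. Every black bar lies between -0.116 and 0.058.

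For the 4 segment genes the median of the 4-array means was 0.01, with medians of -0.17 and -0.10 when wild type carried Cy5 and 0.08 and 0.13 on those with 152F7 in Cy5. Over all 11791 genes the median was 0.002 and the 4 array medians lay between -0.012 and 0.022. Of the segment genes 0 reached 1.1-fold with the same sign on all 4 arrays, where 3.42% of all genes were higher and 1.45% lower in the numerator pool by that rule. With a threshold of 1.5-fold the count was also 0, against 0.0848% of all genes in either direction. Both counts were 0 for all 7 measured members as well. The median changed sign without replicate 2 of wild type in Cy5 (-0.019) and without replicate 2 of 152F7 in Cy5 (-0.005).

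With the wild-type-in-Cy5 pair turned in sign, all 4 segment genes lay above 0, at 0.24 for Ttc3, 0.15 for Pigp, 0.10 for Dyrk1a and 0.01 for Vps26c, and their median was 0.12. The median over all genes in that reading was 0.01, and 58.6% of genes lay above 0. Ttc3 and Pigp then passed 1.1-fold with 1 sign on all 4 arrays, as 4.49% of all genes did in that direction and 2.39% in the other. Dyrk1a did not pass as a gene, but its spot 4200 did, while its spots 6362 and 18171 did not. The share of all single spots that pass in this reading is not given here. No gene of the series passed 1.5-fold in the turned reading. With all arrays read as running the same way, as the sex-linked genes and the crystallins do, this contrast measures how values moved with the dye and not the difference between the pools.

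The paralogues outside the segment did not show the separation by dye as a group. Dyrk1b, a kinase known in mammals to hold cells in a resting state, had 3 spots that disagreed. Spot 8403 read 0.101 and -0.109 with wild type in Cy5 and -0.084 and -0.063 with 152F7 in Cy5. On spot 34971 the values were -0.106 and 0.020, then -0.362 and -0.017, so the replicates with 152F7 in Cy5 differed by 0.345. Spot 36867 read -0.108 and -0.083, then 0.285 and 0.043, and was the only Dyrk1b spot whose orientations lay on opposite sides of 0. The spot means were -0.04, -0.12 and 0.03. Their average was below 0 on all 4 arrays (-0.04 ± 0.02), but no single spot was, and all 3 were among the 25% of spots with the largest mean gap between replicates.

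Dyrk3, a kinase that dissolves stress granules and other condensates, was the 1 member spot above 0 on all 4 arrays. Spot 16545 read 0.1 and 0.078 with wild type in Cy5 and 0.001 and 0.053 with 152F7 in Cy5, a 4-array mean of 0.06 ± 0.04. One of these values is barely above 0, and 20.8% of all spots had the same sign on all 4 arrays. Its 1.04-fold difference is below both fold thresholds, and its dye contrast was -0.03, opposite in sign to that of the segment genes. Dyrk4, at 1 spot with 0 values, and Dyrk2 could not be compared.

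Dcaf7 encodes a WD40-repeat protein that binds DYRK1A and DYRK1B. Its 2 spots are annotated to the same transcript and differed. Spot 24572 read -0.119 and -0.048 with wild type in Cy5 and 0.205 and 0.138 with 152F7 in Cy5, a separation like that of Dyrk1a spot 4200. Spot 40007 read 0.012 and -0.071, then -0.028 and -0.004, with overlapping orientations. The gene's 4-array mean was 0.01 ± 0.08 and its dye contrast 0.07, with 0.13 and 0.007 on the 2 spots.

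Ranked by 4-array mean, the 7 measured genes ran from Dyrk3 (0.06) over Ttc3 (0.04), Dyrk1a (0.03), Dcaf7 (0.01), Vps26c (-0.005) and Dyrk1b (-0.04) to Pigp (-0.07). Each step between neighbours was within the SD of at least 1 of the 2 genes. That SD includes the separation by dye, which cancels in the 4-array mean, so it does not measure the precision of these means. With 1 pool per genotype the order was not tested and is not resolved. For 5 of the 7 genes the SD exceeded the size of the mean, as it did for 75.5% of all genes, the exceptions being Dyrk1b and Dyrk3. Ranked by dye contrast the order was Ttc3, Pigp, Dyrk1a, Dcaf7, Vps26c, Dyrk1b and Dyrk3. In 4 of the 7 genes, Ttc3, Pigp, Dyrk1a and Dcaf7, both arrays with 152F7 in Cy5 were above 0 and both with wild type in Cy5 below it, as in 20% of all genes, and in 0 of the 7 the reverse held, as in 10.8%.

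**Figure D2:**
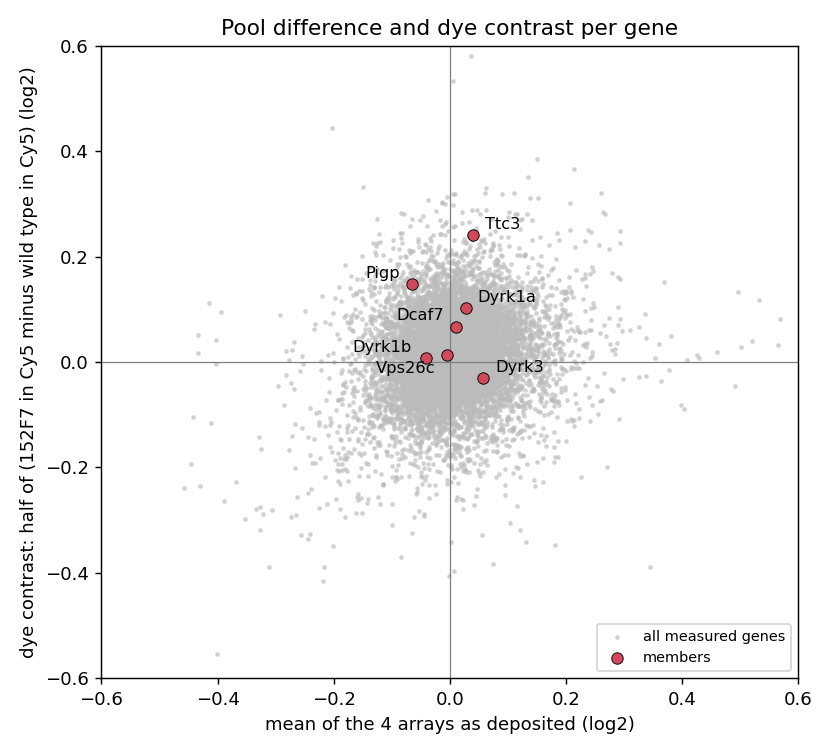
Each point is a gene: the horizontal axis is its mean over the 4 arrays as deposited and the vertical axis its dye contrast, both in log2. Grey points are all 11791 measured genes (10 lie outside the axes) and red points the 7 measured members; Ttc3 lies near the upper edge of the cloud at 0.24 on the vertical axis, and all members lie within 0.07 of 0 on the horizontal one.

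The genes on either side of the segment on mouse chromosome 16 gave a comparison within the same chromosome. Of 17 listed flanking genes 15 had values on all arrays. In the pool difference 1 of them passed 1.1-fold with 1 sign, where 3.42% of all genes were higher and 1.45% lower. This was Erg, an endothelial transcription factor, at -0.15 ± 0.08, and Dop1b, a gene of endosome-to-Golgi traffic, fell just short of that fold at 0.14 ± 0.04 with all 4 arrays above 0. Their median was 0.02 in the 4-array mean and -0.01 in the dye contrast, against 0.12 for the segment genes in the latter. Of the 15, 6 had a dye contrast above 0, as did 58.6% of all genes, and 2 had both orientations on opposite sides of 0 in each direction, beside 20% and 10.8% of all genes. In the turned reading 0 of the 15 passed 1.1-fold, where 4.49% of all genes were higher and 2.39% lower, so this count does not stand apart from the series. The difference between segment and flanks is descriptive, since the members were chosen with results known and cannot be tested with 1 pool per genotype.

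**Figure D3:**
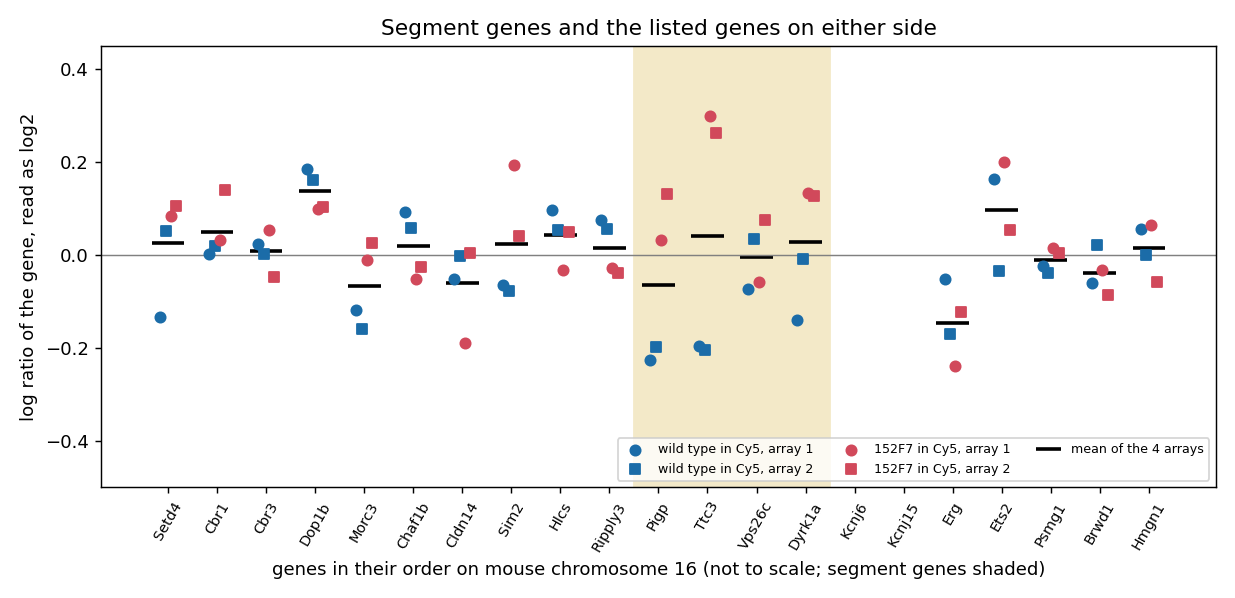
Log ratios of the segment genes (shaded) and the listed flanking genes, drawn in their order on mouse chromosome 16 and not to scale, with blue points for wild type in Cy5, red points for 152F7 in Cy5 and black bars for 4-array means. The widest gap between red and blue points is at Ttc3, Erg has the lowest mean (-0.15), and Kcnj6 and Kcnj15 have no points because they lack 4 values.

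By Euclidean distance over the 4 arrays, the genes outside the members whose values were most like those of Dyrk1a were Stk24 (0.027), Golm1 (0.040), Rgs11 (0.042), Avl9 (0.046) and Sprr2b (0.048). For Ttc3 they were Marchf8 (0.041), Aplp1 (0.054), Ruvbl2 (0.056), Osbpl2 (0.056) and Wdr24 (0.061). Of the 11791 measured genes, 240 outside the members lay within 0.1 of Dyrk1a and 28 within 0.1 of Ttc3. Neither profile was therefore particular to its gene. The number of genes that near to a typical gene was not computed, so how common each profile is cannot be said.

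Genes of DYRK1A substrates and partners were taken from a list of 45, of which 38 were measured on all arrays. Between the pools 4 of the 38 were higher in the numerator pool by at least 1.1-fold with 1 sign on all arrays and 0 lower, where all genes gave 3.42% and 1.45%. These were Ccnd2, Mapt, Notch1 and Stat3. Stat3 no longer passed without replicate 1 of wild type in Cy5, without replicate 2 of 152F7 in Cy5 or with each array centred on its median. Without replicate 2 of wild type in Cy5 Notch1 was lost and Rbbp4 and Cdkn1b passed on the lower side, which made 3 higher and 2 lower. Notch1 was also lost without the noisiest 25% of spots, and Mapt and Notch1 with the spot nearest to 0 for each gene. The median of the 38 was -0.005, beside 0.002 for all genes. None reached 1.5-fold.

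Ccnd2, a cyclin that drives progenitors through G1 and a relative of the DYRK1A target cyclin D1, read 0.264 and 0.402 with wild type in Cy5 and 0.207 and 0.161 with 152F7 in Cy5. Its mean was 0.26 ± 0.10, or 1.20-fold, and each of its 3 spots was above 0 on all 4 arrays. The other D cyclins did not share this: Ccnd1 had 0.01 ± 0.05 and Ccnd3 0.01 ± 0.08. Cdkn1b, the cell cycle inhibitor p27 that DYRK1A stabilises, had -0.13 ± 0.10, with 1 array above 0.

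Mapt, which encodes the microtubule protein tau, read 0.071 and 0.120 with wild type in Cy5 and 0.182 and 0.251 with 152F7 in Cy5, a mean of 0.16 ± 0.08. One of its 3 spots was below 0 on 1 array. Notch1, a receptor that keeps progenitors undifferentiated, read 0.226 and 0.368, then 0.015 and 0.023, so its mean of 0.16 ± 0.17 came mostly from the first of these pairs. Stat3, a transcription factor of cytokine signalling, had 0.14 ± 0.09 and passed 1.1-fold by a small margin, while Fam53c, a DYRK1A-binding protein, had 0.13 ± 0.02 and fell just short of it.

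The medians of the DREAM complex, NFAT pathway and splicing factor groups lay close to 0. By the 1.1-fold rule 3.42% of all genes were higher and 1.45% lower. At these shares, counts of 0 do not set groups of this size apart. Of 10 DREAM complex genes 0 passed in either direction (median -0.03), with Lin52, whose protein is the DYRK1A target in the complex, at 0.02 ± 0.07. Rbbp4, a histone-binding subunit, had the lowest mean of the list, -0.20, but its SD was 0.45 and its 2 arrays with wild type in Cy5 were -0.093 and 0.388. Of 4 measured NFAT pathway genes 0 passed (median 0.01), with Rcan1, the calcineurin regulator, at 0.009 ± 0.068. Among 4 splicing factor genes 0 passed (median -0.05), with Srsf1 at -0.09 ± 0.14 and Sf3b1, a core component of the U2 snRNP, at -0.05 ± 0.03 and below 0 on all 4 arrays. Rest, a repressor of neuronal genes, had -0.02 ± 0.06.

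In the dye contrast the 4 measured genes of the neuronal and endocytic group had a median of 0.12, beside 0.01 for all genes. Amph, an adaptor of endocytosis, read -0.200 and -0.166 with wild type in Cy5 and 0.380 and 0.392 with 152F7 in Cy5, a dye contrast of 0.28. Dnm1, the neuronal dynamin that cuts vesicles from the membrane, read -0.109 and -0.130, then 0.159 and 0.230, a dye contrast of 0.16. These 2 of the 38 genes passed 1.1-fold in the turned reading, a share near that of all genes (4.49% higher and 2.39% lower), and are neither in the segment nor on its flanks by the lists used here. Related kinases of the HIPK, CLK and SRPK families together with Prpf4b, which share the same branch of the kinase tree, gave 8 measured genes of 11. Of these 0 passed 1.1-fold in the pool difference or in the turned reading. At the shares of all genes, 3.42% and 1.45% as deposited and 4.49% and 2.39% turned, a count of 0 of 8 does not set these kinases apart. Hipk2, a nuclear kinase, had the largest mean of these, 0.12 ± 0.06, and the median was -0.03.

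**Figure D4:**
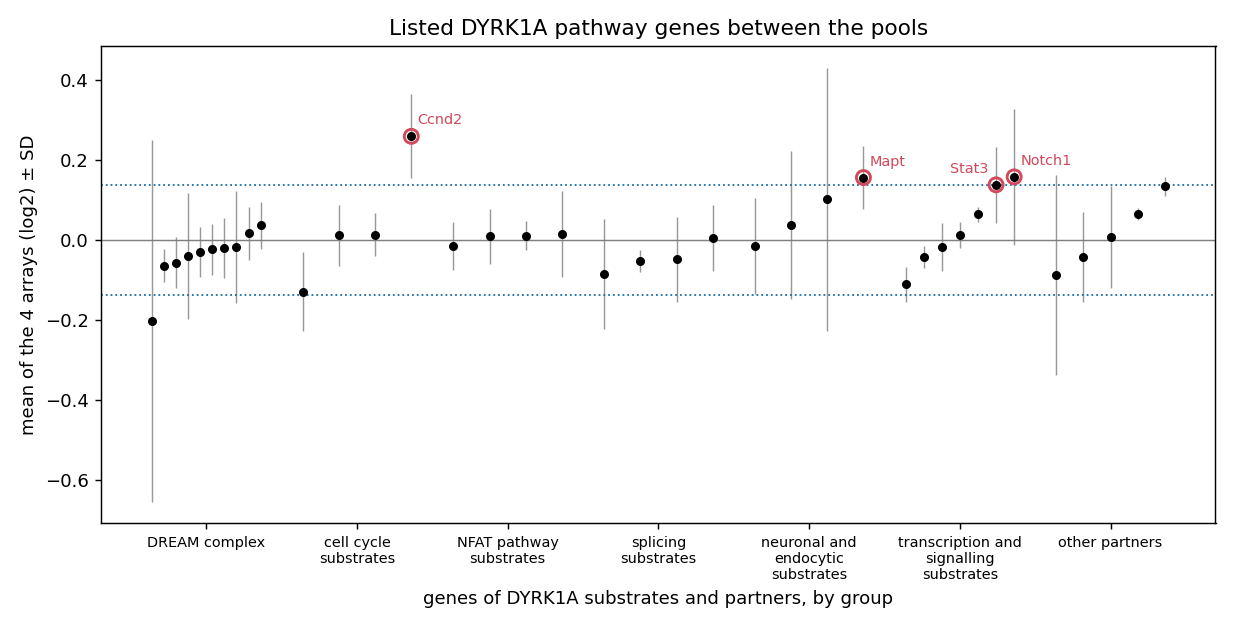
Means over the 4 arrays (log2) of the 38 measured genes of DYRK1A substrates and partners, by group, with bars for the SD over the 4 arrays. Dotted lines mark 1.1-fold, and red circles the 4 genes past it with 1 sign on all arrays, Ccnd2, Mapt, Stat3 and Notch1; the lowest point, Rbbp4, has the longest bar.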

How the data were processed

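RNA of 1 pool per genotype was hybridised on 4 two-colour arrays, 1 ug of total RNA being amplified and labelled, per the labels' protocols. The deposited file gives a log ratio per spot and array, with empty cells, and was read as log2; how the ratios were made (scanner, background, normalization), their log base and direction, and why cells are empty are not stated in the sources used here. The array medians were between -0.007 and 0.007. No column was left unmapped (0). Spots were named through the platform annotation, with symbols updated by Entrez identifier, and the 47 with several symbols were left out. Spots of a gene with 4 values were averaged. Counts use folds of 1.5 and 1.1 with 1 sign on all arrays, rules that were tested on simulated ratios. Every member spot is named; of the lists, genes past these folds, with others chosen after their values were seen. Members and lists were chosen with earlier results of these data known. Depth does not apply to arrays, whose number limits the precision. Alternatives were the turned reading, each array left out, each orientation alone, centring, other summaries of probes, filters on missing and noisy spots, and other log bases. Python 3.11.15, pandas 2.3.3 and numpy 2.4.6 were used. One marker gene of the telencephalon list is not reported here.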

Additional observations from a re-analysis of the deposited data

Results flagged for a closer look

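In 4 members both arrays of one dye orientation moved one way and both arrays of the other moved the opposite way. The average of the 152F7-in-Cy5 pair exceeded that of the other pair by 0.481 for Ttc3, 0.295 for Pigp, 0.205 for Dyrk1a and 0.134 for Dcaf7. These differences were not tested. The same split in this direction was seen in 20% of all measured genes.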

How the results depend on the processing

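No paired analysis was possible because the results come from no test. The count of members past 1.5-fold was 0 under every alternative run. The count past 1.1-fold, 0 as reported, was 2 in the turned reading and with wild type in Cy5 alone (Ttc3 and Pigp in both), 1 with 152F7 in Cy5 alone (Ttc3) and 1 with values read as log10 (Dyrk3). The segment median was -0.138 with wild type in Cy5 alone, and it ranged from -0.0188 to 0.0303 when 1 array was left out. The segment's median dye contrast was 0.415 with log10 and 0.105 to 0.145 without 1 array. The paralogue median became 0.0461 when the spot nearest to 0 stood for a gene and 0.058 without the noisiest 25% of spots, where Dyrk3 alone remained because all Dyrk1b spots were left out; Vps26c also had no value there. The pathway count, 4 as reported, was 2 in the turned reading, 2 with the spot nearest to 0, 7 with 152F7 in Cy5 alone and 12 with log10, and 3 to 5 without 1 array. For all genes, 574 passed 1.1-fold as reported, 1657 with wild type and 2250 with 152F7 in Cy5 alone, 2409 with log10 (1387 higher and 1022 lower, against 403 and 171) and 1208 with natural logs. The 10 past 1.5-fold became 0 in the turned reading, 27 with 152F7 in Cy5 alone, 298 with log10 and 28 with natural logs; without replicate 2 of 152F7 in Cy5, 6 in place of 1 were lower. The larger counts with other log bases follow from the scale, and the cause of the other changes was not tested. Dyrk1b (0.00725), Dyrk3 (-0.031), Pigp (0.147) and Vps26c (0.0142) changed sign in the turned reading. The highest ratio size in the table, 5.76, is above the 4.82 that raw 16-bit intensities allow in log10. Since scanner, background and normalization are not stated, this does not settle the log base.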
